A study of Mus musculus with 5 samples.

Results

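Lysosomal hydrolases and membrane proteins were followed as a set of 37 genes in sorted mouse bone marrow (BM) monocytes and neutrophils. The set was chosen by gene symbol, and all 37 symbols were found among the 23234 genes listed for each library. It comprised 7 membrane proteins, 12 glycosidases, 5 sulfatases, 7 lipid hydrolases and lipid-binding activators, 4 genes of other function (a peptidase, 2 acid phosphatases and progranulin) and 2 lysozymes. RNA-seq libraries were made from 5 cell populations, 1 library for each. All of them came from C57BL/6 mice aged 7 weeks of the genotype +/Ym1Venus, that is, heterozygous for a reporter whose fluorescent Venus protein shows where the chitinase-like protein Ym1 is expressed. Naïve monocytes (Ly6C+ CD115+ Venus-) and naïve neutrophils (Ly6G+) were from untreated mice. Ym1+Ly6Chi monocytes (Ly6C+ CD115+ Venus+), Ym1-Ly6Chi monocytes (Ly6C+ CD115+ Venus-) and LPS neutrophils (Ly6G+) were sorted 48 h after intravenous lipopolysaccharide (LPS) at 100 µg per mouse. The sources used here do not say whether animals were pooled. As no condition had a second library, no difference below has a replicate check or a p-value, and each describes a pair of libraries.

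Lysosomes are acidic organelles in which soluble hydrolases degrade glycans, lipids, proteins and nucleic acids delivered by endocytosis, phagocytosis and autophagy. Most of these enzymes are tagged with phosphorylated mannose in the Golgi and carried onward by receptors, while a proton pump, the V-ATPase, acidifies the lumen and heavily glycosylated proteins line the limiting membrane. Transcription factors of the MiT/TFE family, such as TFEB, bind E-box-type elements near the start sites of many lysosomal genes. In neutrophils, acid hydrolases and lysozyme are also stored in azurophil granules, whose membrane carries the tetraspanin CD63, whereas in monocytes and macrophages the same enzymes serve the degradation of ingested material.

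As E-box-type elements are known from many lysosomal genes, promoters were searched for the letters GTCACGTG on both strands, its reverse complement being CACGTGAC. A higher share in this set than among all genes is therefore not an independent finding. RefSeq promoter windows (assembly GRCm38.p6, from 250 bases before to 50 bases after the start of each gene) were matched to 34 of the 37 genes, Npc1, Asah1 and Galns having no entry. The element was found in 7 of the 34 windows, or 20.6%, and in 689 of the 27025 windows of all genes, or 2.55%. The shorter core CACGTG, which every match to the longer element also holds, was found in 8 of 34 (23.5%) and in 2187 of 27025 windows (8.09%). The 7 genes were Arsa, Gla, Glb1, Lamp1, Mcoln1, Naglu and Sgsh, and Gaa had the core alone. Matches lying well upstream of the start are shown with 25 bases on either side, 5′ to 3′ on the strand of the gene, to let the flanks be compared. Capitals mark the element.
Mcoln1, chr8:3500421-3500478, plus strand, 73 to 66 bases before the start: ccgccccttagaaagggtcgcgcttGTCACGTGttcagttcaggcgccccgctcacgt
Mcoln1, chr8:3500449-3500506, plus strand, 45 to 38 bases before the start, element on the opposite strand: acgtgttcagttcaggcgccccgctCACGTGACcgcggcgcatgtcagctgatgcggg
Glb1, chr9:114401003-114401060, plus strand, 50 to 43 bases before the start: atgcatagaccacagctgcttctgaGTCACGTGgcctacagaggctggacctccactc
Naglu, chr11:101069994-101070051, plus strand, 75 to 68 bases before the start: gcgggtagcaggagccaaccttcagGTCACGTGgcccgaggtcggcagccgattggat
Gla, chrX:134601169-134601226, minus strand, 196 to 189 bases before the start: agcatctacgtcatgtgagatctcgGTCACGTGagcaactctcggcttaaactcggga
Mcoln1 thus carried 2 copies in opposite orientation. A match describes the sequence and does not show that a factor binds there.

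The deposited values are FPKM, fragment numbers scaled for library size and per kilobase of transcript, so that levels can be set side by side between genes. For each pair of libraries the difference in log2(FPKM + 1) was taken for every gene that reached an FPKM of 1 in 1 library or both, and a gene was counted when it was at least 2-fold apart, that is, by at least 1 on this scale, which understates the change of low genes. Folds given below are ratios of the FPKM values themselves. Read from the steps between low FPKM values, depth relative to the Ym1+ library ranged from 44.7% in the Ym1- library to 97.2% in naïve neutrophils. An FPKM of 10 for a transcript of 2 kb stood for roughly 87 to 195 fragments. The monocyte markers Csf1r, Ccr2 and Ly6c2 and the neutrophil markers S100a8, S100a9 and Ngp followed the labels. The summed FPKM of 8 monocyte markers was 4874 to 6010 in the 3 monocyte libraries and 1417 to 1637 in the 2 neutrophil libraries, and that of 9 neutrophil markers was 1267 to 15731 and 300933 to 305126. Most of the monocyte marker sum in neutrophils was Ly6c2, with 1377 in naïve and 1613 in LPS neutrophils, while Ccr2 had 0.986 and 1.13. S100a8 and S100a9 alone made up 29.96% of the summed FPKM of naïve neutrophils and 27.7% of that of LPS neutrophils, against 0.172% to 2.39% in monocytes. These are shares of FPKM and not of fragments, and their part in the FPKM of other genes was not tested. The counts and medians of the lineage comparisons are also given after median-of-ratios scaling, which brings the median gene of the libraries to a common level. The values and folds of single genes are from FPKM.

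The 37 genes spanned more than 4 orders of magnitude in each neutrophil library. In naïve monocytes the FPKM ranged from 4.05 for Acp5 to 15831 for Lyz2, with a median of 34.8, where the median of all genes above 0 was 7.84. The median of the set was 25.6 in Ym1-Ly6Chi monocytes, 26.8 in Ym1+Ly6Chi monocytes, 16.7 in naïve neutrophils and 27.1 in LPS neutrophils. No gene was at 0 in any library, and those under an FPKM of 1 were Gaa and Acp5 in naïve neutrophils and Arsa and Acp5 in LPS neutrophils. An FPKM of at least 100 was reached by 12 of the 37 genes in each monocyte library, by 8 in naïve neutrophils and by 6 in LPS neutrophils. Naïve monocytes had the highest level of the 5 populations for 24 genes, and the lowest level was in a neutrophil library for 30 genes, 15 in each. These orders were not counted over all genes, of which 59.5% of 11267 had all 3 monocyte libraries above both neutrophil libraries in FPKM.

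**Figure D1:**
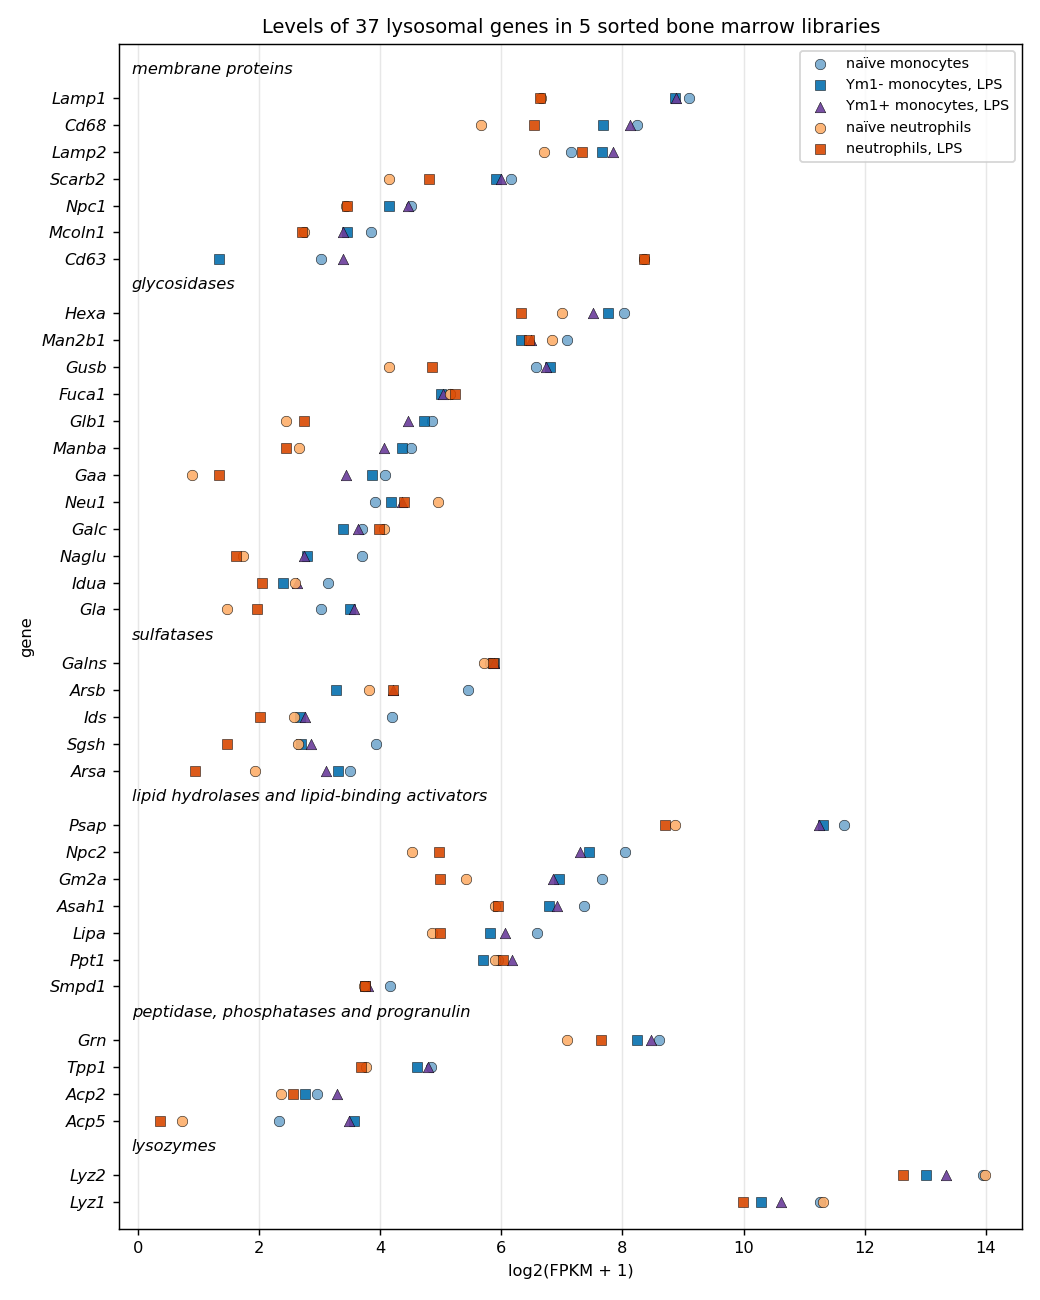
Level of each of the 37 genes, grouped by function, in the 5 libraries, on a log2(FPKM + 1) axis; each symbol is 1 library and there are no error bars. The circles, squares and triangles of monocytes (blue and purple) lie to the right of the neutrophil symbols (orange) for 24 genes, while Cd63 shows the opposite order and Lyz2 lies farthest right.

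Among the membrane proteins, Lamp1, Cd68 and Scarb2 were several-fold higher in monocytes and Cd63 was far higher in neutrophils. Lamp1 encodes the major glycoprotein of the limiting membrane, and its FPKM was 549 in naïve monocytes, 464 in Ym1-Ly6Chi monocytes, 469 in Ym1+Ly6Chi monocytes, 99.5 in naïve neutrophils and 98.4 in LPS neutrophils. Its level in neutrophils was 5.52-fold lower without LPS and 4.71-fold lower after it. Cd68, a related glycoprotein used as a macrophage marker, had values of 302, 204, 278, 49.9 and 92.3 in the same order of libraries, which is kept for the lists of 5 values that follow. All 3 monocyte libraries lay above both neutrophil libraries for these genes. Scarb2, which encodes the lysosomal membrane protein LIMP-2, had 70.8, 59.2, 63.0, 16.7 and 27.1. The cholesterol exporter gene Npc1 had 21.7, 16.7, 21.0, 9.83 and 9.98, and Mcoln1, which encodes a cation channel of the lysosomal membrane, had 13.4, 9.98, 9.45, 5.68 and 5.58. Both were more than 2-fold lower in naïve neutrophils than in naïve monocytes. After LPS the differences from Ym1-Ly6Chi monocytes were within 2-fold, at -0.69 for Npc1, whose direction changed with median-of-ratios scaling, and -0.74 for Mcoln1. Lamp2, a partner of Lamp1 that also serves autophagy, did not separate the lineages. Its FPKM was 141, 201, 230, 103 and 161, and LPS neutrophils exceeded naïve monocytes.

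Cd63 was the gene of the set with the largest difference between the lineages. Its FPKM was 7.11 in naïve monocytes, 1.54 in Ym1-Ly6Chi monocytes and 9.47 in Ym1+Ly6Chi monocytes, against 326 in naïve neutrophils and 328 in LPS neutrophils. Neutrophils were thus 45.9-fold higher without LPS and 213-fold higher after it, and the 2 neutrophil libraries differed by 0.01 on the log2 scale. The Ym1- value rests on about 7 fragments, with a 95% Poisson interval of 0.581 to 2.98 for counting error only, so that the 213-fold ratio is imprecise. Cd63 was also the only gene of the set counted as at least 2-fold apart between Ym1+ and Ym1- monocytes, by 6.16-fold or 2.05 on the log2 scale, and it was 4.63-fold lower in Ym1- than in naïve monocytes. The Ym1+ value rests on about 103 fragments (interval 7.76 to 11.5), which does not overlap that of the Ym1- library.

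Neutrophil markers also differed across the monocyte libraries, some in the order of Cd63 and some not. In RNA of a sorted population, more cells of a type and more RNA per cell cannot be told apart. The summed FPKM of the neutrophil markers, 9 found of 10 listed and all above an FPKM of 1, was 1267 in naïve monocytes, 2290 in the Ym1- and 15731 in the Ym1+ library, so that unlike Cd63 it was higher in Ym1- than in naïve cells. The same order was found for S100a8 with 595, 1107 and 7993, for S100a9 with 331, 648 and 5205, and for Lcn2 (lipocalin) with 81.1, 420.4 and 1870, as well as for the receptor gene Cxcr2 with 4.01, 4.80 and 13.1. The granule gene Ngp had 113, 46.2 and 387, Ltf (lactoferrin) 23.2, 9.01 and 103, and Camp (cathelicidin) 39.6, 13.5 and 103, the lowest value being in the Ym1- library each time, as for Cd63. Retnlg, which reached 12795 in naïve and 5157 in LPS neutrophils, had 13.9, 10.6 and 13.7 and so was nearly level across the monocyte libraries. Csf3r had 66.1, 30.2 and 43.5, and so was lowest in the Ym1- library but highest in naïve monocytes. The summed FPKM of 4 platelet markers was 11.8, 0.620 and 4.41, Pf4 and Gp9 being listed at 0 in the Ym1- library. The part of these cells in the Cd63 values was not tested.

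Of the 12 glycosidases, 7 were at least 2-fold lower in naïve neutrophils, where 42.7% of all genes were. With median-of-ratios scaling 5 were, against 24.2% of all genes. Gaa, the acid alpha-glucosidase that degrades glycogen, had FPKM values of 15.9, 13.5, 9.85, 0.859 and 1.53, which is 18.5-fold lower in naïve neutrophils and 8.81-fold lower in LPS neutrophils. The neutrophil values rest on about 30 and 44 fragments, with intervals of 0.586 to 1.24 and 1.11 to 2.06. Gusb (beta-glucuronidase) had 93.9, 111, 106, 16.7 and 27.9, and Glb1 (beta-galactosidase) had 28.1, 25.6, 21.1, 4.48 and 5.72. Manba (beta-mannosidase) followed with 21.8, 19.5, 15.7, 5.32 and 4.46, and Gla (alpha-galactosidase A) with 7.16, 10.4, 10.8, 1.79 and 2.90. Each of these had all 3 monocyte libraries above both neutrophil libraries, which was the order of 59.5% of all genes. Naglu, an enzyme of heparan sulfate breakdown, had 12.04, 5.92, 5.71, 2.33 and 2.08, so that it was also close to 2-fold lower in the monocytes after LPS. Hexa, the alpha subunit of beta-hexosaminidase, was the most abundant glycosidase with 261, 215, 181, 127 and 79.1, and its lineage difference of -1.03 in untreated cells was just past 2-fold.

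The other 5 glycosidases did not follow that order. Neu1, the lysosomal sialidase, was higher in both neutrophil libraries with 14.1, 17.1, 19.6, 29.98 and 19.9, although the last value exceeded that of Ym1+Ly6Chi monocytes by little. Without LPS the neutrophil level was 2.12-fold that of monocytes, while the ratio of 1.17 between LPS neutrophils and Ym1- monocytes turned with TPM scaling. Galc (galactosylceramidase) had 12.1, 9.53, 11.5, 15.8 and 14.7, again highest in neutrophils but within 2-fold. Fuca1 (alpha-fucosidase) was nearly even in FPKM over the 5 libraries with 34.8, 31.1, 31.9, 34.6 and 36.9. Man2b1, an alpha-mannosidase, had 134, 79.3, 89.3, 114 and 87.3, and Idua (alpha-iduronidase) 7.82, 4.25, 5.18, 5.05 and 3.13. For these last 3 the ranges of the lineages overlapped.

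The sulfatases had the lowest median change with LPS of the 6 groups in monocytes, -1.24 in Ym1- and -1.08 in Ym1+ cells, which came from Ids, Arsb and Sgsh. Ids, which removes sulfate from iduronate in heparan and dermatan sulfate, had an FPKM of 17.4 in naïve monocytes, against 5.42 in Ym1- and 5.77 in Ym1+ monocytes after LPS, and 4.96 and 3.04 in naïve and LPS neutrophils. Arsb, which acts on dermatan and chondroitin sulfate, had 42.6, 8.64, 17.5, 13.03 and 17.5. It was 4.93-fold lower in Ym1- and 2.44-fold lower in Ym1+ monocytes than in naïve monocytes, with counting intervals of 7.31 to 10.1 and 16.2 to 18.8 that do not overlap. Sgsh, a heparan sulfatase, had 14.3, 5.50, 6.26, 5.24 and 1.78, and was the only gene of the set more than 2-fold lower after LPS in both neutrophils and Ym1- monocytes on this scale (with TPM scaling, in which every library has the same total, Lyz1 and Lyz2 were as well). Arsa, which degrades sulfatide, was lower in neutrophils, with 10.3, 8.84, 7.64, 2.81 and 0.934. Its value in LPS neutrophils rests on about 26 fragments (interval 0.615 to 1.38), and it was 3.01-fold lower than in naïve neutrophils by FPKM, although the difference of -0.98 in log2(FPKM + 1) fell short of the threshold. With median-of-ratios scaling it passed. Galns, which acts on keratan and chondroitin sulfate, was the most even gene of the group with 55.1, 58.1, 58.0, 51.5 and 57.6.

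Among the genes of lipid breakdown, Psap had the highest level in every library. Psap encodes prosaposin, the precursor of the saposins that present sphingolipids to their hydrolases. Its FPKM was 3239.7 in naïve monocytes, 2537 in Ym1- and 2431 in Ym1+ monocytes, 468 in naïve neutrophils and 413 in LPS neutrophils. With the lysozymes left out, Psap accounted for 51.0%, 50.9% and 48.1% of the summed FPKM of the 35 genes left in the 3 monocyte libraries and for 24.8% and 21.2% in the 2 neutrophil libraries. Npc2, which binds cholesterol in the lumen and passes it to Npc1, had 263, 174, 156, 22.1 and 30.3, and its level in naïve neutrophils was 11.9-fold lower, a ratio that Gaa alone exceeded. Gm2a, the GM2 activator, had 201, 123, 114, 41.7 and 30.8. Asah1 (acid ceramidase) had 163, 110, 120, 58.7 and 60.5, and Lipa (lysosomal acid lipase) had 95.8, 55.2, 66.0, 28.1 and 30.7, so that both were more than 2-fold lower in naïve neutrophils and within 2-fold after LPS. Ppt1, a thioesterase that removes palmitate from proteins, and Smpd1, the acid sphingomyelinase, did not separate the lineages. Ppt1 had 60.4, 51.2, 71.0, 58.3 and 63.9, and Smpd1 had 16.9, 12.5, 12.9, 12.3 and 12.5.

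Of the remaining genes, Grn, which encodes progranulin, was abundant in every library with 390, 300, 355, 135 and 200. Tpp1, a tripeptidyl peptidase, had 27.6, 23.4, 26.8, 12.7 and 11.9. Both were more than 2-fold lower in naïve neutrophils than in naïve monocytes. After LPS both were within 2-fold, at -0.58 for Grn, whose direction changed with median-of-ratios scaling, and -0.92 for Tpp1. Acp2, the lysosomal acid phosphatase, varied least of this group with 6.80, 5.76, 8.74, 4.13 and 4.89. Acp5, the tartrate-resistant acid phosphatase known from osteoclasts, was the only gene of the set at least 2-fold higher in monocytes after LPS, with 4.05 in naïve monocytes against 10.8 and 10.2 in the Ym1- and Ym1+ cells, and it was the lowest gene in both neutrophil libraries at 0.652 and 0.294. The naïve monocyte value rests on about 36 fragments (interval 2.84 to 5.61), below the intervals of the Ym1- library (8.50 to 13.8) and of the Ym1+ library (8.59 to 11.99).

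Lyz2 was the highest gene of the set in every library, Lyz1 came next in neutrophils and after Psap in monocytes, and neither differed 2-fold between the lineages. Lysozyme cleaves the peptidoglycan of bacterial walls, and Lyz2 is the form known from myeloid cells. Its FPKM was 15831 in naïve monocytes, 8193 in Ym1- and 10349 in Ym1+ monocytes, 16252 in naïve neutrophils and 6314 in LPS neutrophils. Lyz1 had 2458, 1252, 1573, 2543 and 1014, ranging between 15.2% and 16.1% of Lyz2 over the 5 libraries. The 2 transcripts are 96.0% identical over 1262 aligned bases, and 16.1% of the 50-base windows of Lyz1 occur unchanged in Lyz2, so that reads of 1 gene may have been assigned to the other and the Lyz1 values are uncertain. Both naïve libraries lay above all 3 LPS libraries. After LPS, Lyz2 was 1.93-fold lower in Ym1- monocytes, 1.53-fold lower in Ym1+ monocytes and 2.57-fold lower in neutrophils.

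The lysozymes made up most of the share of each library that the set took up. All 37 genes made up 4.59% of the summed FPKM in naïve monocytes, 2.54% in Ym1-, 3.08% in Ym1+ monocytes, 2.91% in naïve and 1.20% in LPS neutrophils. Without the lysozymes the shares were 1.18%, 0.879%, 0.916%, 0.265% and 0.251%. The other 35 genes thus held a similar share of both neutrophil libraries, and a lower share after LPS than before in monocytes. The full set was lower after LPS in both lineages.

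**Figure D2:**
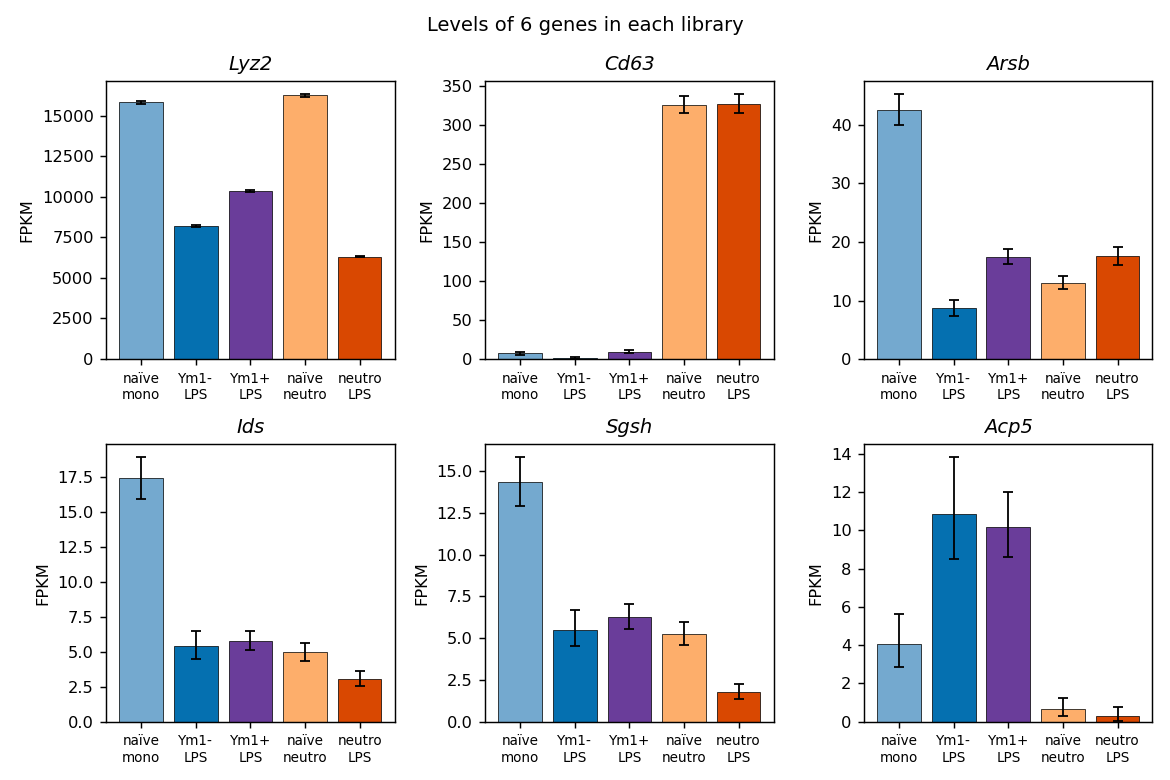
FPKM of Lyz2, Cd63, Arsb, Ids, Sgsh and Acp5 in each of the 5 libraries, on linear axes that start at 0; bars are single libraries and error bars are approximate 95% Poisson intervals for counting error only. Lyz2 is lower in the 3 LPS libraries, Ids, Sgsh and Arsb are highest in naïve monocytes, Cd63 is high in neutrophils and Acp5 is highest in the monocytes after LPS.

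To compare the lineages over the whole set, naïve neutrophils were set against naïve monocytes, and LPS neutrophils against Ym1-Ly6Chi monocytes, pairs that share no library. In untreated cells 24 of the 37 genes (64.9%) were at least 2-fold lower in neutrophils, where 42.7% of 10944 genes were, and 2 (Cd63 and Neu1) were at least 2-fold higher, where 10.8% of genes were. The median difference was -1.46 for the set and -0.79 for all genes. After LPS 16 of 37 genes (43.2%) were lower, where 40.8% of 10676 genes were, and 1 (Cd63) was higher, where 11.0% were, with medians of -0.83 and -0.74. The set was therefore lower than the median gene in untreated neutrophils by 0.67 and after LPS by 0.09, and the share of 2-fold lower genes after LPS was near that of all genes. All 16 genes counted as lower after LPS were among the 24 of the untreated pair. The same overlap was not counted over all genes, so it is not shown to be particular to the set. All 3 monocyte libraries lay above both neutrophil libraries for 24 genes (64.9%), which was the order of 59.5% of 11267 genes, and the reverse order was found for Cd63, Neu1 and Galc (8.11%), against 17.3% of genes. With median-of-ratios scaling 17 genes had monocytes above neutrophils, where 36.1% of all genes did, and 8 had the reverse (Cd63, Man2b1, Neu1, Fuca1, Galc, Galns, Smpd1 and Ppt1), where 35.3% did. With TPM scaling, which sets the total of each library equal, the counts were 30 and 1, against 68.3% and 10.5% of genes.

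The size of this difference depended on the scaling. With median-of-ratios scaling the median of all genes moved to -0.03 in untreated cells and to -0.01 after LPS, and those of the set to -0.63 and -0.031. The genes still at least 2-fold lower in untreated neutrophils then numbered 12, namely Lamp1, Cd68, Scarb2, Gaa, Glb1, Gusb, Manba, Naglu, Psap, Gm2a, Npc2 and Acp5, against 24.2% of all genes. After LPS there were 10, namely Lamp1, Gaa, Glb1, Gusb, Manba, Arsa, Psap, Gm2a, Npc2 and Acp5, against 21.4% of all genes. Those at least 2-fold higher were Cd63, Neu1 and Galc in untreated neutrophils, and Cd63, Fuca1, Galc, Arsb and Ppt1 after LPS, where 22.3% and 22.1% of all genes were. Among all genes counted as 2-fold apart, the share that was higher in neutrophils went from 20.2% to 47.9% in untreated cells and from 21.2% to 50.9% after LPS. Lamp1, Gaa, Glb1, Gusb, Manba, Psap, Gm2a, Npc2 and Acp5 were thus lower and Cd63 higher in neutrophils in both pairs under both scalings. For 8 genes within 2-fold the direction of the untreated difference changed with this scaling (Acp2, Fuca1, Galns, Idua, Lamp2, Man2b1, Ppt1 and Smpd1), and after LPS the same held for Acp2, Galns, Grn, Idua, Lamp2, Lyz1, Lyz2 and Npc1. With TPM scaling it changed for Galc, Lyz1 and Lyz2 in untreated cells and for Fuca1, Man2b1, Neu1, Ppt1 and Smpd1 after LPS. The order of the lineages for these genes thus depended on the scaling.

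**Figure D3:**
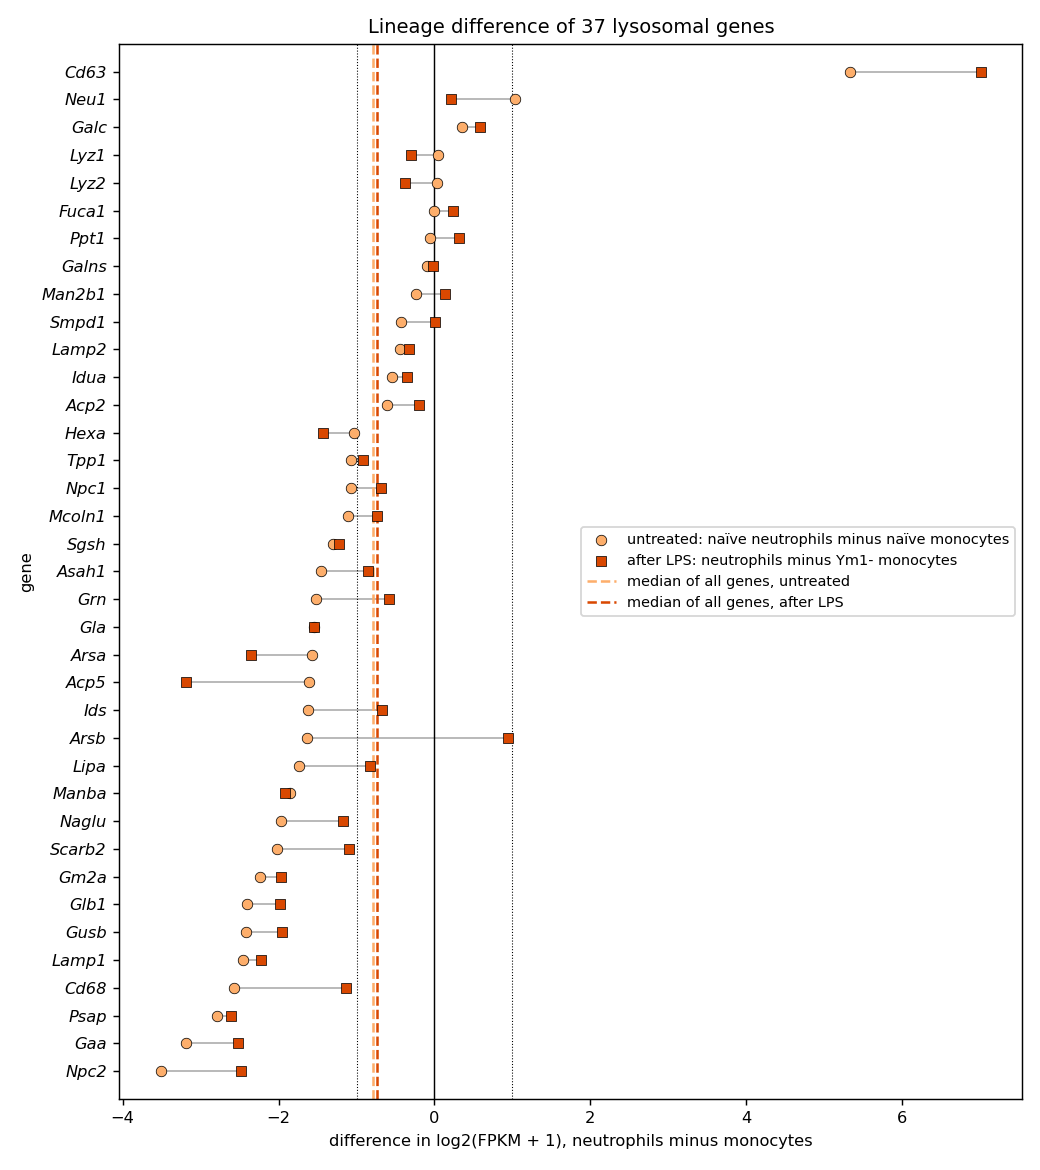
Difference in log2(FPKM + 1) between neutrophils and monocytes for each gene, untreated (circles) and after LPS against Ym1- monocytes (squares), in order of the untreated value. Dotted lines mark 2-fold and dashed lines the median of all genes, at -0.79 and -0.74; most points lie left of the 2-fold line, Npc2 lowest at -3.51, and Cd63 lies alone on the right at 5.33 and 7.02.

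By function, groups other than the lysozymes had medians below that of all genes (-0.79). Where 42.7% of all genes were, at least 2-fold lower in naïve neutrophils were 5 of 7 membrane proteins (median -1.11), 7 of 12 glycosidases (median -1.29), 4 of 5 sulfatases (median -1.57), 5 of 7 lipid genes (median -1.73) and 3 of the 4 genes of other function. The median of the lysozymes was 0.04. After median-of-ratios scaling, with 24.2% of all genes lower, the counts became 3, 5, 0, 3 and 1, and the median of the lysozymes 0.89. No sulfatase then remained 2-fold lower in untreated neutrophils.

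The genes with the E-box-type element in their promoter were compared in the same way. All 7 were at least 2-fold lower in untreated neutrophils, from -2.45 for Lamp1 to -1.11 for Mcoln1 with a median of -1.57, against 15 of the 27 other genes with a promoter window, whose median was -1.07. After LPS 6 of 7 and 10 of 27 were lower, with medians of -1.54 and -0.58. With median-of-ratios scaling the untreated counts were 3 of 7 and 9 of 27, with medians of -0.91 and -0.27, and those after LPS were 3 of 7 and 7 of 27, with medians of -0.87 and 0.23. Over all genes, 45.0% of the 411 genes compared that carried it and 42.7% of the 7390 that did not were at least 2-fold lower in untreated neutrophils, with medians of -0.81 and -0.79, and after LPS the shares were 39.6% and 40.6%. With median-of-ratios scaling the untreated shares over all genes were 22.0% of 409 and 24.2% of 7379, with medians of -0.045 and -0.036. After LPS they were 20.5% of 405 and 21.2% of 7190, with medians of -0.045 and 0.009.

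**Figure D4:**
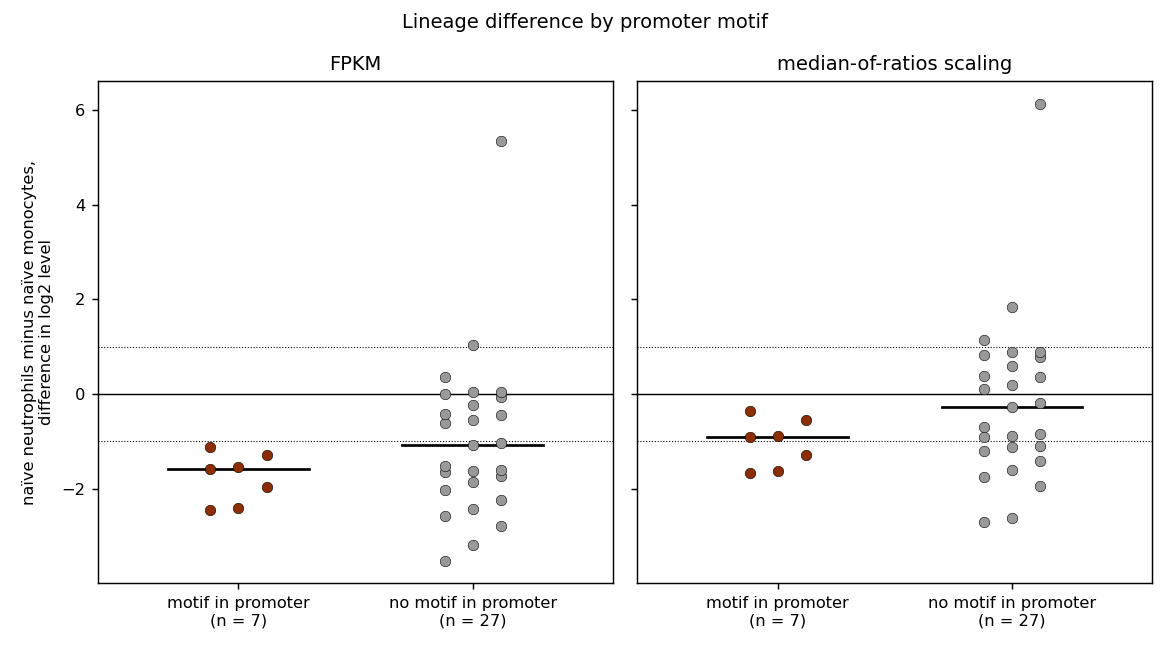
Difference in log2 level between naïve neutrophils and naïve monocytes for the 7 genes with the GTCACGTG element in the promoter and the 27 without it, from FPKM (left) and after median-of-ratios scaling (right); points are genes, bars are medians and dotted lines mark 2-fold. The 7 genes lie below -1 on the left and 3 of them do so on the right, within the range of the other genes.

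Fewer genes of the set, as of all genes, passed 2-fold with LPS than between the lineages. This did not hold for the size of every difference. Lyz2 changed by -0.95 in Ym1- monocytes and -1.36 in neutrophils with LPS, against lineage differences of 0.04 untreated and -0.38 after LPS. In Ym1-Ly6Chi monocytes, sorted by the same gate as naïve monocytes, 4 of 37 genes (10.8%) were at least 2-fold lower, namely Arsb (-2.18), Cd63 (-1.68), Ids (-1.52) and Sgsh (-1.24), and 1 was higher, Acp5 (1.23). Of all genes 4.72% were lower and 2.86% were higher. Although few passed 2-fold, 31 of the 37 genes were below 0, with a median of -0.35, where the median of all genes was 0.00. Those above 0 were Gla, Lamp2, Neu1, Gusb, Galns and Acp5. In Ym1+Ly6Chi monocytes against the same naïve library, 3 genes (8.11%) were lower, namely Ids (-1.44), Arsb (-1.24) and Sgsh (-1.08), where 4.51% of genes were, and Acp5 (1.14) was higher, where 2.59% were. There 28 of 37 genes were below 0, with a median of -0.39 against -0.06 for all genes, and in this pair both LPS and the Venus gate differ. As both comparisons use the naïve monocyte library, a feature of that library would appear in both. Markers of other cells differed between these libraries too. The summed FPKM of 6 dendritic cell markers was 183 in naïve monocytes, 65.2 in the Ym1- and 15.3 in the Ym1+ library. That of 6 early progenitor markers was 2456, 1842 and 1507. Other sums went the opposite way, with 56.6, 98.4 and 200 for 12 tissue macrophage markers and 42.1, 67.0 and 78.4 for 6 eosinophil or basophil markers. Of the macrophage markers, Hmox1 had 44.4, 58.3 and 111, while Cd163 had 2.04, 0.798 and 0.552. Of the progenitor markers, Cd34, Kit, Mpo and Elane were lower in both LPS libraries than in naïve monocytes. Prtn3, with 628, 801 and 675, was higher in both, and Ctsg had 284, 382 and 237. The part of these markers in the changes was not tested.

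In neutrophils, LPS was accompanied by lower levels of Lyz2 (-1.36), Lyz1 (-1.32) and Sgsh (-1.17), and no gene of the set was at least 2-fold higher. Thus 3 of the 36 genes compared (8.33%) were lower, where 5.35% of 9583 genes were, and none was higher, where 8.96% were. Acp5, under an FPKM of 1 in both libraries, was not compared. The set was spread about 0, with 19 genes above and 17 below and a median of 0.01, against 0.07 for all genes. With TPM scaling Asah1, Cd63, Fuca1, Npc1 and Smpd1 turned from above to below 0 and the median was -0.11, so that these counts of signs, and those that follow, depended on the scaling. The summed FPKM of 6 early progenitor markers was 45.2 in naïve and 681 in LPS neutrophils. The higher sum came from Mpo (9.77 and 119), Elane (13.7 and 173), Prtn3 (11.5 and 326) and Ctsg (2.95 and 59.0). Kit was lower after LPS (7.00 and 2.57), and Cd34 was low in both libraries (0.26 and 0.54). The part of these markers in the values of the set was not tested. Cd68 (0.87), Gusb (0.71), Scarb2 (0.67) and Lamp2 (0.63) had the highest values, all within 2-fold. In the 36 genes compared in both lineages, 16 were below 0 in both, 4 were above 0 in both and 16 had opposite signs, none of the latter by 2-fold in both. These signs were not counted over all genes.

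**Figure D5:**
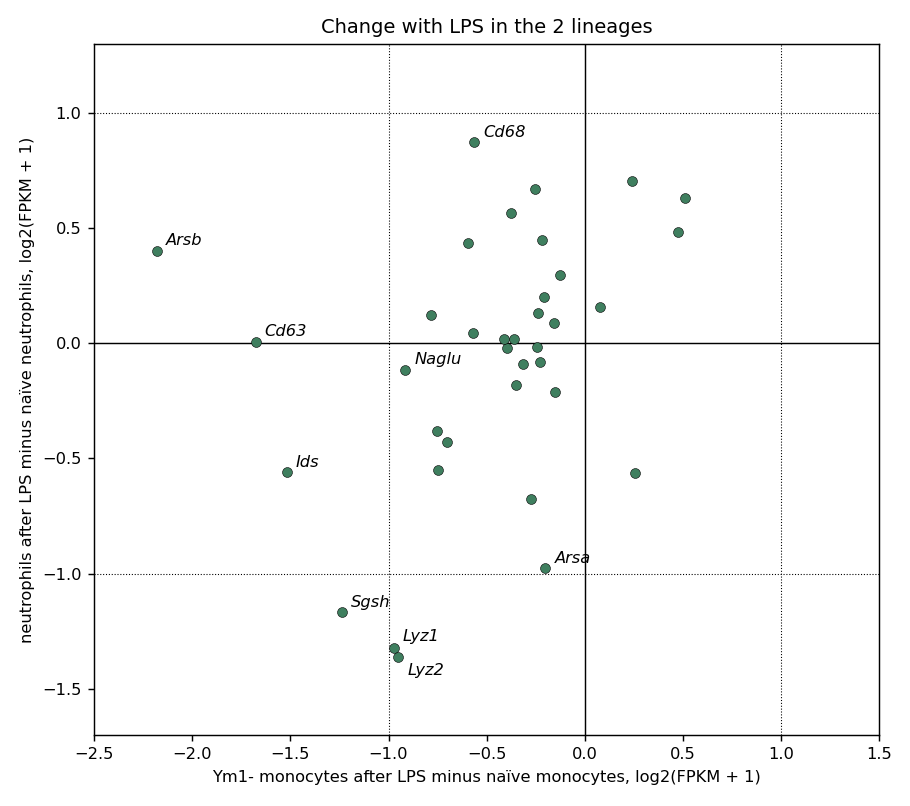
Change with LPS in neutrophils (vertical) against that in Ym1- monocytes (horizontal) for 36 genes, both as differences in log2(FPKM + 1); points are genes and dotted lines mark 2-fold. Most points lie left of 0 and near 0 on the vertical axis; Sgsh is past 2-fold on both axes, Lyz1 and Lyz2 in neutrophils, and Arsb, Cd63 and Ids in monocytes.

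Between the monocyte subsets after LPS the set was close to level. Ym1+Ly6Chi monocytes had 1 gene at least 2-fold higher than Ym1-Ly6Chi monocytes, Cd63 (2.05), where 1.38% of all genes were, and none at least 2-fold lower, where 1.18% were. The next highest was Arsb at 0.94, a ratio of 2.02 in FPKM, which passed 2-fold with TPM scaling, and the lowest was Gaa at -0.42. Of the 37 genes 24 were above 0, with a median of 0.09, against -0.06 for all genes.

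Other parts of the lysosomal system were set beside the hydrolases. In untreated neutrophils 42.7% of all genes were at least 2-fold lower and 10.8% higher, and with median-of-ratios scaling 24.2% and 22.3%, which are the shares against which the counts of each list stand. Among subunits of the V-ATPase, 1 of 16 was at least 2-fold higher in naïve neutrophils and none lower, with a median of -0.11, against the median of -0.79 for all genes. The gene counted was Atp6v0a1, at 9.81, 4.41, 8.94, 34.6 and 46.8. With median-of-ratios scaling 5 of 16 were higher and none lower (median 0.73). Among 23 other lysosomal hydrolases, 14 were lower and 1 higher (median -1.51), and with that scaling 10 were lower and 2 higher. Pld4, an exonuclease of nucleic acids, had 406, 299.8, 298, 1.11 and 1.33, and the carboxypeptidase gene Scpep1 had 78.7, 51.3, 29.4, 0.158 and 0.126.

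Of 20 other membrane proteins and transporters, 7 were lower and 4 higher in naïve neutrophils (median -0.75), where 42.7% and 10.8% of all genes were. Tmem192, a lysosomal membrane protein, had 46.1, 47.3, 39.9, 2.77 and 13.7, so that it was also higher in LPS than in naïve neutrophils, by 1.96 on the log2 scale, while Cln3, a membrane protein mutated in a storage disease, was lower there, with 58.8 in naïve and 25.6 in LPS neutrophils. Of 20 genes for sorting of hydrolases, 7 were lower and 1 higher (median -0.75). The gene that was higher was Igf2r, which encodes the larger mannose-phosphate receptor and had 0.0697, 0.147, 0.646, 9.72 and 8.40. M6pr, the other mannose-phosphate receptor gene of the list, was lower in neutrophils, with 180, 177, 170, 29.1 and 40.9. Nagpa, which uncovers the mannose-phosphate tag, had 39.8, 41.6, 29.97, 4.99 and 6.67. With median-of-ratios scaling the medians of these lists were 0.07 and 0.03, with 4 lower and 6 higher in the first and 4 lower and 2 higher in the second.

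Of 12 genes for MiT/TFE factors and the Ragulator-Rag complex, which signals nutrient state at the lysosome, 2 were lower and 1 higher (median -0.52), and with median-of-ratios scaling 1 of 11 was lower and 3 were higher. Tfec had 35.1, 46.5, 42.7, 0.436 and 4.35, and Mitf had 5.72, 4.004, 4.44, 1.66 and 1.32. Tfeb, the factor best known for regulating lysosomal genes, had 37.3 in naïve monocytes and 34.3 in naïve neutrophils, and 25.7, 29.3 and 19.3 in Ym1- monocytes, Ym1+ monocytes and neutrophils after LPS. After LPS, 11 of the 22 other hydrolases compared were lower in neutrophils than in Ym1- monocytes and 2 were higher, while 1 of 16 V-ATPase subunits was higher and 1 lower, against 40.8% of all genes lower and 11.0% higher. With median-of-ratios scaling 8 of 22 other hydrolases were lower and 2 higher, and 5 of 16 V-ATPase subunits were higher and none lower, against 21.4% of all genes lower and 22.1% higher.

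With LPS itself few genes of these lists passed 2-fold. In Ym1- monocytes, where 4.72% of all genes were lower and 2.86% higher, no gene was counted for the V-ATPase, sorting or MiT/TFE lists. In the same cells 2 of 23 other hydrolases were lower, and 1 of 21 membrane proteins was higher and 1 lower. The V-ATPase subunits had a median of 0.17 there and of 0.33 in Ym1+ monocytes, above those of the 23 other hydrolases at -0.41 and -0.28. In neutrophils after LPS, Atp6v1a, a catalytic subunit of the pump, was higher, with 34.7 in naïve and 94.3 in LPS neutrophils, and Hgsnat, an acetyltransferase of heparan sulfate breakdown, was lower, with 39.1 and 18.8. Between Ym1+ and Ym1- monocytes no gene of the 5 lists was at least 2-fold apart, where only 1.38% of all genes were higher and 1.18% lower.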

How the data were processed

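Bulk RNA-seq of sorted BM cells was analysed, 1 library for each of 5 conditions, with groups taken from the sample labels. The authors deposited FPKM values for 23234 gene symbols per library. The libraries were made with a strand-specific SureSelect kit. The tools listed in the submitters' processing notes are TopHat2 2.0.8 and Cufflinks 2.1.1, with mm9 as the build. Options, annotation and read numbers: not given in the sources used here. Since FPKM are not counts, no count model was fitted.

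Differences of log2(FPKM + 1) were computed with Python 3.11.15, numpy 2.4.6 and pandas 2.3.3 for 6 library pairs. Genes had to reach an FPKM of 1 in 1 library of the pair or both, and those 2-fold or more apart were counted. Medians and shares of all genes compared were set beside those of the 37 genes. All 37 genes were named. From each of the 5 pathway lists, genes were picked by the largest lineage or neutrophil LPS difference, among those with an FPKM of at least 5, and not all of them are printed. M6pr was named outside this rule, to stand beside Igf2r. The 37 genes, the pathway lists and the marker lists were chosen with earlier results of these data known. The symbols Lamtor1, Lamtor4, Lamtor5 and Ly6g were not found.

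Depth was estimated from the most frequent ratio between low FPKM values of library pairs and from GENCODE transcript lengths, so fragment numbers and Poisson intervals (scipy 1.17.1) are approximate and cover counting error only. Alternatives were a pseudocount of 0.1, no filter, an FPKM of at least 5, TPM scaling, median-of-ratios scaling and a 4-fold threshold. The steps were tested on simulated data. Promoter sequences are from RefSeq (GRCm38.p6), which is not the build of the files. Lysozyme transcripts were aligned with Biopython 1.88.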

Additional observations from a re-analysis of the deposited data

Results flagged for a closer look

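Arsb differed between the lineages in its change with LPS. Its FPKM was 42.6 in naïve and 8.64 in Ym1-Ly6Chi monocytes, a log2 difference of -2.18, and 13.03 in naïve and 17.5 in LPS neutrophils, a difference of 0.40. The change in neutrophils minus that in monocytes was 2.58. With 1 library per condition this difference was not tested.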

How the results depend on the processing

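None of the 56 gene differences of at least 2-fold changed direction under another pseudocount, filter or scaling. All 56 stayed past 2-fold with a pseudocount of 0.1 and with no filter, all 55 that remained with an FPKM of at least 5 did so, 55 did with TPM scaling (Neu1 did not) and 37 with median-of-ratios scaling. Median-of-ratios scaling gave 12 genes lower and a median of -0.63 in untreated neutrophils against monocytes, and 5 higher, 10 lower and a median of -0.031 after LPS. TPM scaling left 1 gene higher in untreated neutrophils, and gave 7 lower in Ym1- monocytes against naïve ones, adding Naglu, Lyz1 and Lyz2, and 2 higher in Ym1+ against Ym1- monocytes, adding Arsb. TPM scaling also made 13.2% and 13.03% of all genes counted in the 2 lineage comparisons higher, rather than 20.2% and 21.2%, and 51.1% rather than 62.6% in neutrophils after LPS. A pseudocount of 0.1 gave 2 higher in LPS neutrophils against Ym1- monocytes and 2 higher in Ym1+ against Ym1- monocytes. At a 4-fold threshold, 1 gene was higher and 9 lower in untreated neutrophils, 6 were lower in neutrophils after LPS against Ym1- monocytes, 0 genes passed upward and 1 downward in Ym1- monocytes after LPS, 0 in either direction in Ym1+ monocytes, and 0 were lower in LPS neutrophils against naïve ones. Apart from the construction of the 4-fold threshold, the cause of these shifts was not tested. Depth limits low genes most, since up to 4 of the 37 genes per library rest on under 50 fragments. No paired analysis was possible because each condition has 1 library.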
